A study of Mus musculus with 2 samples.

Results

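Genes of the nonmuscle and smooth muscle actin cytoskeleton were described in the pleuroperitoneal folds (PPFs) of the mouse embryo, the paired folds that give rise to the connective tissue of the diaphragm. The genes were chosen by name, with earlier results of these data known. All 39 symbols looked up were found among the 38926 genes listed in each file. They were set in 4 classes from general knowledge of where each protein works: 29 nonmuscle genes, 6 smooth muscle genes (Acta2, Actg2, Myh11, Tagln, Cnn1 and Lmod1), 2 genes shared by smooth muscle and other contractile cells (Myl9 and Cald1) and 2 genes prominent in striated muscle (Flnc and Cfl2). The series holds a single group, wild-type PPFs of a mixed 129s/SvlmJ-C57/BL6J background at embryonic day 12.5, as replicates 1 and 2, each made from 2 dissected PPF pairs that were pooled. Its stated purpose is to rank genes implicated by human work on diaphragm defects. Polyadenylated RNA was sequenced, with 26370253 counts in replicate 1 and 23255957 in replicate 2. The heart and lungs were removed in the dissection. The labels do not say whether the pools came from separate litters, so the spread between the libraries may be partly technical, and no other tissue, stage or genotype was analysed here.

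Actin filaments are built from monomers whose supply is set by thymosins, profilins and cofilins. The filaments are crosslinked by filamins and alpha-actinins, pulled by bipolar filaments of myosin II, and tied to the cell surface by talin and vinculin at integrin adhesions and by the ezrin, radixin and moesin proteins at the cell cortex. Smooth muscle cells add their own isoforms of actin, myosin, calponin and leiomodin to this shared machinery. Many genes of the system are controlled by serum response factor (SRF), which binds the CArG box and is driven by the myocardin family of coactivators. In the embryo, mesenchymal cells and young muscle cells also use alpha smooth muscle actin and transgelin, so these genes do not by themselves mark smooth muscle.

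The promoters were searched for the CArG box, which reads alike on both strands, and the matches are shown because SRF is the regulator best known for this gene set. RefSeq promoter sequences (GRCm38.p6, 250 bases before to 50 bases after the gene start) were matched by symbol for 33 of the 39 genes. Actb, Actg2, Myh11, Tagln, Pxn and Tln2 had no promoter sequence there and were not searched. A CArG box stood in the window of 5 of these 33 genes (15.2%), beside 1.63% of all 32851 promoters in the table and 1.70% of the 15560 protein-coding genes with a promoter there. The 5 were Cnn2, Vcl, Myl6 and Actg1 of the nonmuscle class and Myl9 of the shared class. None of the 3 smooth muscle genes with a promoter in the table (Acta2, Cnn1 and Lmod1) had such a match in this window. All matches found were CC, a run of A and T letters, then GG. Boxes that depart from this form were not looked at, so these promoters may still hold a site for SRF. Each sequence below is written 5′ to 3′ on the strand of its gene, with the CArG box in capitals and 20 bases on either side.
Cnn2, chr10:79988524-79988573, plus strand: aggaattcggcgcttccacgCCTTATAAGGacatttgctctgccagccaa
Vcl, chr14:20929151-20929200, plus strand: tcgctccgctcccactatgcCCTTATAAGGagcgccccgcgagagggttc
Myl6, chr10:128493030-128493079, minus strand: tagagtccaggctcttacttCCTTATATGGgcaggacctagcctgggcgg
Actg1, chr11:120348556-120348605, minus strand: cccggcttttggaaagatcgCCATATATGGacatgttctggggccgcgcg
Myl9, chr2:156775283-156775332, plus strand: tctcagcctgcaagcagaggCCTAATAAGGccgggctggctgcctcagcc
Cnn2 and Vcl held the same 10 letters. The box began 50 bases before the gene start in Myl6, 56 in Cnn2, 90 in Actg1, 161 in Myl9 and 227 in Vcl. The mean level was 28.95 TPM (transcripts per 1000000) for Actg1, whose count is uncertain, as described below. The other genes with the box in this window lay between 175 TPM for Vcl and 398 TPM for Cnn2.

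Nearly the whole set, chosen with earlier results of these data known, was expressed, and most of it at a high level. TPM divides each count by the length of its gene and sets every library to an equal sum, which allows levels of different genes to be compared. In both libraries 38 of 39 members had at least 1 TPM (97.4%), against 63.5% of the 21410 protein-coding genes and 44.4% of all listed genes. At least 10 TPM was reached by 35 members (89.7%), against 46.4% of protein-coding and 28.4% of all listed genes. At least 100 TPM was reached by 28 members (71.8%), against 7.89% of protein-coding and 4.71% of all listed genes, and at least 1000 TPM by Actb, Cfl1, Tmsb4x and Vim (10.3%), against 0.224% of protein-coding and 0.154% of all listed genes. The median member stood at 192 TPM in replicate 1 and 184 TPM in replicate 2, against 26.5 and 27.0 TPM for the 13593 protein-coding genes with at least 1 TPM in both. Together the members held 1.45% of the counts in replicate 1 (exact 95% binomial interval 1.44 to 1.45%) and 1.41% in replicate 2 (1.40 to 1.41%), and 1.43% and 1.39% of the TPM. The intervals cover counting error only, and may be too narrow even for that, because several reads can stem from the same molecule. In bulk tissue, fewer cells of a type and less RNA per cell cannot be told apart.

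**Figure D1:**
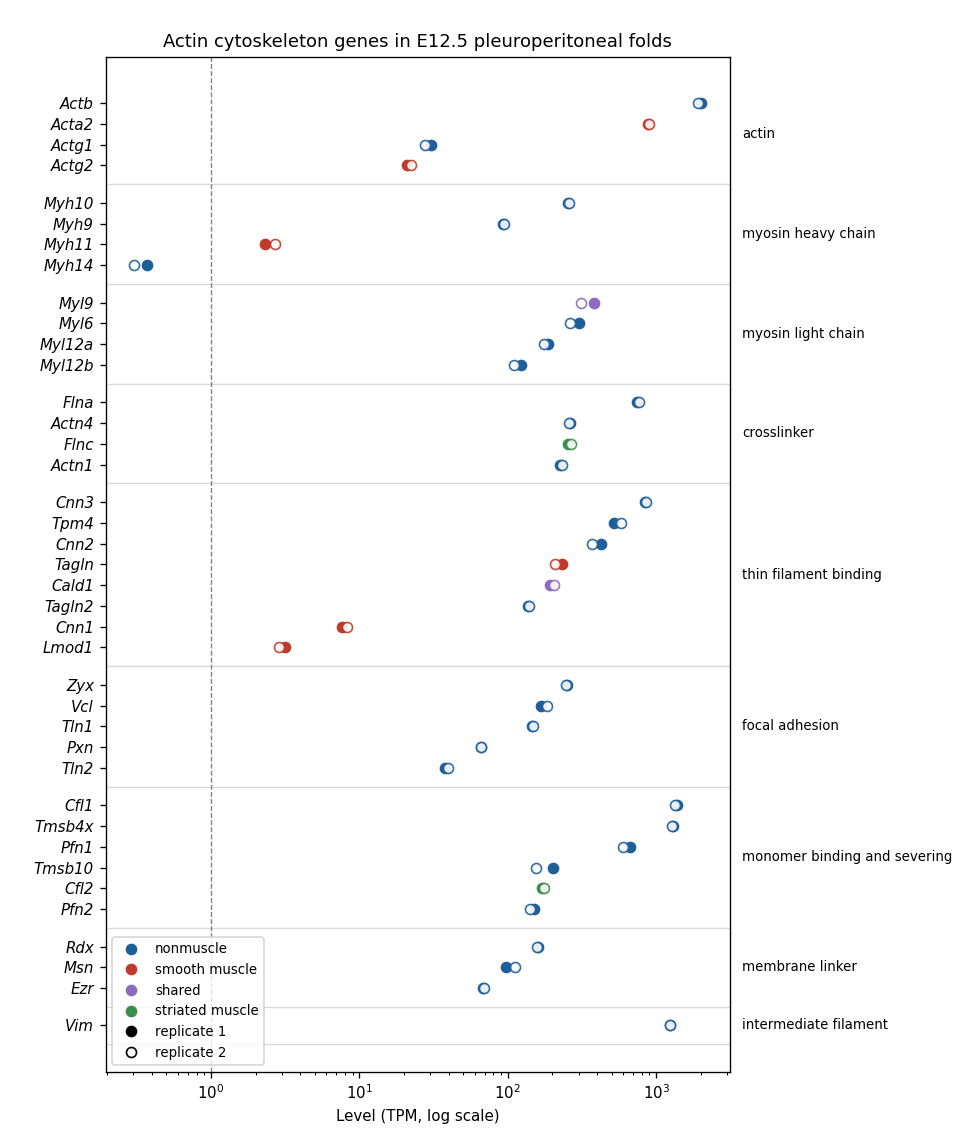
Level of each member in TPM on a log scale, in replicate 1 (filled) and replicate 2 (open), grouped by role and coloured by class, with a dashed line at 1 TPM. Actb, at 2012 and 1925 TPM, is the highest, and Myh14, at 0.373 and 0.303 TPM, is the lone member left of the line.

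Most cells make a pair of cytoskeletal actins with almost the same protein, beta-actin from Actb and gamma-actin from Actg1, but their listed levels were far apart. Actb (chromosome 5, 142903115 to 142906754 in GRCm38) had 2012 TPM in replicate 1 and 1925 TPM in replicate 2, from 45739 and 37484 reads. Actg1 (chromosome 11, 120345690 to 120348542) had 30.4 and 27.5 TPM, from 685 and 532 reads. Actb thus stood 68.1 ± 2.59 times above Actg1 (SD, n = 2), and ranked 25th among protein-coding genes by mean TPM.

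The Actg1 count was at odds with the features inside the same gene. Gm23419, an annotated miRNA of 84 bases that lies in an Actg1 exon apart from 1 base, had 234 reads in replicate 1 and 163 in replicate 2. The miRNA gene mmu-mir-6935, of 64 bases and also inside Actg1, had 66 and 63 reads. Per base, Gm23419 had 2.79 reads in replicate 1 and 1.94 in replicate 2, against 0.258 and 0.200 for Actg1 as a whole, 10.8 and 9.70 times more. For mmu-mir-6935 the density was 4.92 times that of Actg1 in replicate 2, and its mean over both libraries was 4.46 times. For comparison, short features were taken that lie at least 90% inside an exon of a host gene on the same strand. Hosts needed at least 500 counts in each library. Over these 216 features the median density relative to the host was 0.287 and 0.299. Gm23419 ranked 1st and mmu-mir-6935 ranked 4th of these 216. Of the distinct stretches of 50 bases in annotated Actg1 transcripts, 37.4% also occurred in transcripts of other genes, against 9.12% for Actb. In the annotation 10 processed pseudogenes share at least 1% of these stretches with Actg1, and 5 of them were found in the files, with 143 reads in all in replicate 1 and 102 in replicate 2. The sources used here do not say how reads that match several places were counted, and the part of the shared sequence in the Actg1 level was not tested. The Actg1 value is therefore uncertain as a measure of gamma-actin messenger RNA.

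**Figure D2:**
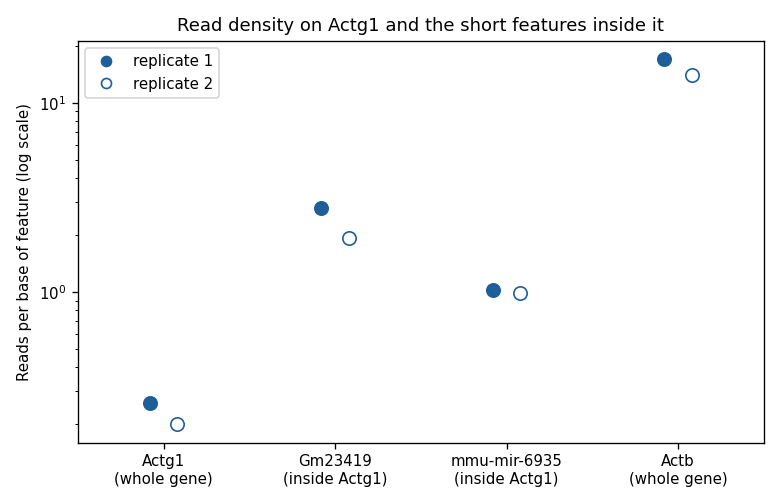
Reads per base on a log scale for Actg1, for the 2 short features inside it and for Actb, in replicate 1 (filled) and replicate 2 (open). Gm23419, at 2.79 and 1.94 reads per base, lies above the whole of Actg1, at 0.258 and 0.200, and below Actb, at 17.1 and 14.0.

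Of the 2 smooth muscle actins, Acta2 was abundant and Actg2 was not. Acta2 (chromosome 19, 34241090 to 34255590), which encodes the alpha smooth muscle actin of vessels and myofibroblasts, had 879.9 TPM in replicate 1 and 889 TPM in replicate 2. Actg2 (chromosome 6, 83512905 to 83536265), which encodes the enteric smooth muscle actin, had 21.1 and 22.1 TPM. Acta2 stood 41.0 ± 1.14 times above Actg2 and Actb 2.23 ± 0.0852 times above Acta2 (SD, n = 2). Both differences were far larger than the spread between the libraries. Only 0.326% of the Acta2 stretches of 50 bases were shared with other genes, and none of those of Actg2. The sarcomeric actin genes Actc1 (1924 ± 64.9 TPM) and Acta1 (516 ± 4.62 TPM), which are not members, were also present. Over all 6 actins Acta2 held 16.5% of the TPM in replicate 1 and 16.6% in replicate 2, Actb 37.7 and 36.0%, and Actc1 35.2 and 36.9%. The sum holds the uncertain Actg1 count, and an undercount there would make these shares too high.

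Among the 4 heavy chain genes of nonmuscle and smooth muscle myosin II, the motor of the actin network, the nonmuscle gene Myh10 was highest. Myh10 (chromosome 11, 68691559 to 68816632), which encodes nonmuscle myosin IIB, had 254 TPM in replicate 1 and 259 TPM in replicate 2. Myh9 (chromosome 15, 77760587 to 77842175), which encodes nonmuscle myosin IIA, had 92.3 and 94.9 TPM, so that Myh10 stood 2.74 ± 0.0177 times above it. Myh11 (chromosome 16, 14194535 to 14291372), the smooth muscle myosin gene, had 2.31 and 2.72 TPM, from 130 and 131 reads. Myh14, which encodes nonmuscle myosin IIC, had 23 and 16 reads, or 0.373 and 0.303 TPM, and was the single member under 1 TPM. The skeletal heavy chain genes Myh3, at 522 and 561 TPM, and Myh8, at 49.9 and 55.4 TPM, are not members, and Myh3 stood above Myh10 in both libraries. Of the summed TPM of the 4 member genes Myh10 held 72.8 and 72.5%, Myh9 26.5 and 26.6%, Myh11 0.662 and 0.762% and Myh14 0.107 and 0.0849%. With counts in place of TPM, which favours long genes, Myh10 held 68.7 and 68.4%.

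The light chains that ride on these motors were all above 100 TPM. Myl9, the regulatory light chain shared by smooth muscle and other contractile cells, had 379.8 TPM in replicate 1 and 313 TPM in replicate 2. The nonmuscle regulatory light chain genes Myl12a and Myl12b, neighbours on chromosome 17, had 187 and 175 TPM and 123 and 109.9 TPM. Myl9 thus held 55.1 and 52.3% of the summed TPM of these 3 genes, but 35.3 and 32.7% of their counts. Myl12a shares 19.9% of its annotated exon bases with other genes and Myl12b 14.3%, and the pair have stretches of 50 bases in common, so their split is uncertain. Myl6, the essential light chain gene, had 301 and 264 TPM.

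Among the crosslinkers Flna led, and by reads it was the highest of all members. Flna (chromosome X, 74223461 to 74249820), which encodes filamin A, had 59572 reads in replicate 1 and 52667 in replicate 2, or 747 and 771 TPM. Flnc, the filamin gene prominent in striated muscle, had 254 and 267 TPM, and Flna stood 2.91 ± 0.0373 times above it. The alpha-actinin genes Actn4 and Actn1, whose proteins join filaments side by side, lay close together, at 264 and 258 TPM and at 225 and 232 TPM. Flna, Actb, Vim, Myh10 and Flnc were the 5 members with the most reads in each library and held 45.3 and 45.7% of all member counts.

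Of the proteins that bind along the filament, the nonmuscle forms were high and the smooth muscle forms ranged widely. Cnn3, the acidic calponin gene, had 838 TPM in replicate 1 and 856 TPM in replicate 2, and Cnn2 had 428 and 369 TPM. Cnn3 shares 24.0% of its stretches of 50 bases and 17.7% of its annotated exon bases with other genes. The shared exon bases are with Gm42928, for which no read count was found under that symbol. Cnn1, the calponin gene of differentiated smooth muscle, had 7.67 and 8.31 TPM, from 154 and 143 reads, and Cnn3 stood 106 ± 4.45 times above it. Tpm4, a tropomyosin gene widely used outside muscle, had 519 and 577 TPM, with 15.7% of its stretches of 50 bases shared with other genes. Its processed pseudogene Gm7809 had 875 and 443 reads. Tagln (chromosome 9, 45929619 to 45936058), the transgelin gene that is an early smooth muscle marker, had 233 and 207 TPM. It shares 67.9% of its annotated exon bases with other genes. The antisense gene Gm48529, for which no read count was found under that symbol, holds 55.4% of the Tagln stretches of 50 bases. Pcsk7 (941 and 831 reads) holds 2.98%. Whether the counting used strand is not stated, so the Tagln level is uncertain. Tagln2, its nonmuscle relative, had 138 and 139 TPM, and Tagln stood 1.59 ± 0.144 times above it. Cald1, the caldesmon gene with smooth muscle and nonmuscle forms that a gene level cannot separate, had 192 and 205 TPM. Lmod1, which encodes the leiomodin of smooth muscle, had 3.13 and 2.86 TPM, from 105 and 82 reads.

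The adhesion genes lay between 38.0 and 249 TPM in both libraries. Zyx, the gene of the tension-sensitive adaptor zyxin, was highest at 249 TPM in each library, followed by Vcl, the vinculin gene, at 167 and 184 TPM. Vcl shares 25.5% of its exon bases with Ap3m1. Talin links integrins to actin, and Tln1 at 145 and 149 TPM stood 3.78 ± 0.0540 times above Tln2, at 38.0 and 39.7 TPM. Pxn, the gene of the adaptor paxillin, had 65.8 and 65.7 TPM.

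The genes that handle actin monomers held 2 of the 4 members above 1000 TPM. Cfl1, which encodes the severing protein cofilin-1, had 1390 TPM in replicate 1 and 1347 TPM in replicate 2, and stood 7.93 ± 0.376 times above Cfl2, the form prominent in muscle, at 169.5 and 176 TPM. Tmsb4x, which encodes thymosin beta-4, a protein that holds monomers in reserve, had 1307 and 1270 TPM, and Tmsb10 202 and 155 TPM. The profilin genes, whose proteins feed monomers to growing ends, were Pfn1 at 670.1 and 596 TPM and Pfn2 at 149.6 and 142 TPM. Of the genes that link actin to the membrane, Rdx (radixin) had 159 and 156 TPM, Msn (moesin) 97.9 and 111 TPM and Ezr (ezrin) 68.4 and 68.8 TPM. Vim, which encodes the intermediate filament protein of mesenchymal cells and not a part of the actin filament, had 1238 and 1236 TPM.

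**Figure D3:**
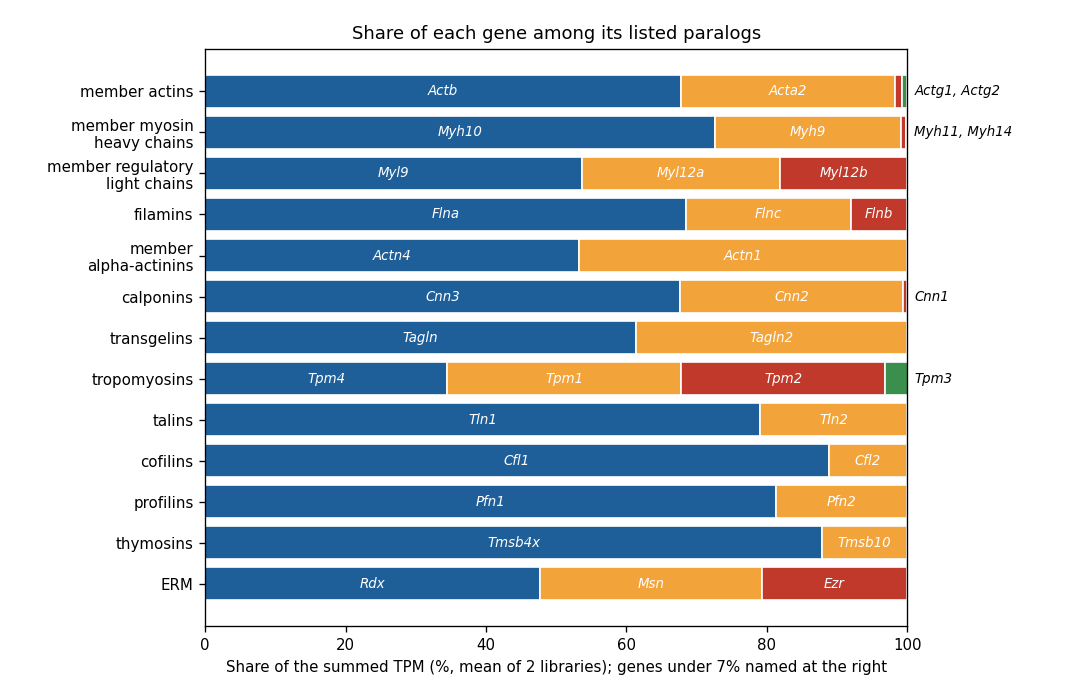
Share of each gene in the summed TPM of the paralogs drawn, as a percentage and the mean of 2 libraries; sarcomeric actins, myosins and alpha-actinins are not drawn, and paralogs too small to label inside a bar are named at its right. Actb holds 67.8% of the 4 member actins, Myh10 72.6% of the 4 member myosin heavy chains, Cnn3 67.6% of the calponins and Cfl1 88.8% of the cofilins. The smooth muscle paralogs Actg2, Myh11 and Cnn1 each hold under 1% of their bars, as does Actg1, whose count is uncertain. Cnn3 and Cfl1 share part of their sequence with other genes.

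Set side by side, the nonmuscle genes had a higher median than the smooth muscle genes, but the smooth muscle genes were split. The 29 nonmuscle genes had a median of 202 TPM in replicate 1 and 184 TPM in replicate 2, against 14.4 and 15.2 TPM for the 6 smooth muscle genes, a ratio of 13.1 ± 1.43 (SD, n = 2). By reads the medians were 7414 and 6595 for nonmuscle genes against 216.5 and 197 for smooth muscle genes, and the ratio was 33.9 ± 0.543 in counts scaled to library size. The ratio depends strongly on how a class is summarised: it was 2.17 between class means, 1.76 with Myl9 and Cald1 counted as smooth muscle, and 24.3 without Acta2. The classes overlapped. Acta2 exceeded 25 of the 29 nonmuscle genes in both libraries, and Tagln, whose level is uncertain, exceeded 15. In contrast, 28 of 29 nonmuscle genes exceeded Actg2, Cnn1, Lmod1 and Myh11, each time with the exception of Myh14. Within the smooth muscle class Acta2 stood 354 ± 38.1 times above Myh11, whereas the libraries differed by at most 1.15-fold in scaled counts for the genes of the class. Genes are not replicates, so no test was made between the classes.

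**Figure D4:**
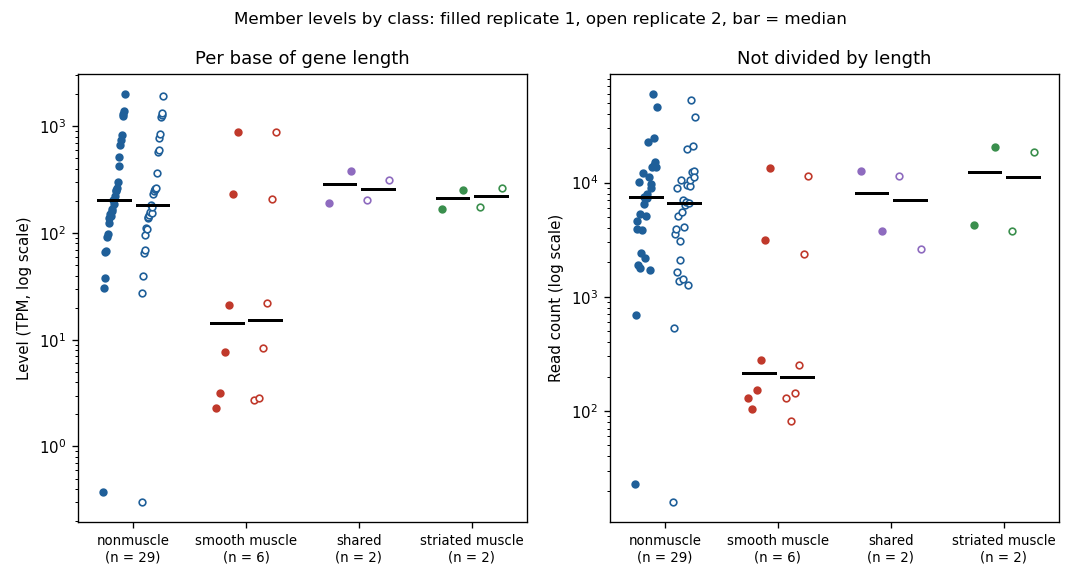
Members by class, in TPM (left) and as read counts (right), both on log scales, with replicate 1 filled, replicate 2 open and a bar at each median. Acta2 and Tagln, the latter of uncertain level, lie within the nonmuscle range, whereas Actg2, Cnn1, Lmod1 and Myh11 lie below every nonmuscle gene other than Myh14.

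Other smooth muscle genes, listed from general knowledge but with earlier results of these data known, also ranged widely. Of 12 genes 11 had at least 1 TPM in both libraries, with a median of 45.6 TPM in replicate 1 and 44.8 TPM in replicate 2. Csrp1, the gene of a LIM protein of the actin network, had 288 and 274 TPM, Des (desmin, used by every muscle type) 139.6 and 138 TPM and Pdlim7 103 and 97.2 TPM. Kcnmb1, the potassium channel subunit gene of mature smooth muscle, had 5 reads in each library, or 0.141 and 0.164 TPM. SRF itself was present, with Srf at 72.8 and 71.1 TPM, and so were its widely expressed coactivator genes Mkl1 at 31.0 and 32.9 TPM and Mkl2 at 23.3 and 27.8 TPM. Myocd, which encodes the coactivator myocardin of smooth and cardiac muscle, had 29 reads in replicate 1 and 41 in replicate 2, or 0.532 and 0.878 TPM.

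Markers of cells that could carry these transcripts are given beside the members, and their part in the member levels was not tested. Of 10 markers of pericytes and vascular mural cells 9 had at least 1 TPM in both libraries, with a summed level of 432 TPM in replicate 1 and 485 TPM in replicate 2. They were led by Pdgfrb at 163 and 178 TPM, while Higd1b had 3 reads and 0 reads, and 0 reads allow up to 0.487 TPM at a floor of 3 counts. All 12 skeletal muscle markers were present, with sums of 5630 and 5787 TPM, led by Actc1 with Ckm lowest at 4.83 and 3.31 TPM. All 6 fibroblast markers were present as well, with sums of 8071 and 8215 TPM, between Col1a1 at 2798 and 2822 TPM and Pdgfra at 359.8 and 377 TPM. The 7 mesothelial markers summed to 568 and 606 TPM, with Upk3b highest and Msln lowest. The 7 endothelial markers summed to 226 and 263 TPM, with Cdh5 highest and Emcn lowest, and the 6 leukocyte markers to 294 and 282 TPM, with C1qb highest and Ptprc lowest. Of 7 cardiac markers 4 had at least 1 TPM, with sums of 85.8 and 112 TPM, Myl7 highest and the heart regulator gene Nkx2-5 at 1 and 3 reads. Of 7 epithelial markers 3 did, with sums of 62.6 and 52.1 TPM, Krt18 highest, and Nkx2-1 and Cdx2 without a read. For Nkx2-1 a count of 0 allows 0.124 TPM in replicate 1 and 0.145 TPM in replicate 2, and for Cdx2 0.156 and 0.183 TPM.

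The rest of the actin machinery, in lists fixed with earlier results of these data known, was also broadly expressed. Beside the members, 97 further genes in 8 lists were looked up, and 94 had at least 1 TPM and 89 at least 10 TPM in both libraries, against 63.5% and 46.4% of protein-coding genes. The exceptions under 1 TPM were Myocd, Kcnmb1 and Fermt1, the kindlin gene of epithelia, with 4 and 5 reads. The median of these genes was 77.1 TPM in replicate 1 and 82.1 TPM in replicate 2. All 17 genes of the Arp2/3 complex and its activators, which start branched filaments, were above the threshold, led by Arpc2 at 329.7 and 331 TPM, Brk1 at 289 and 280.3 TPM and Cttn at 169.9 and 175 TPM, with Arpc5l lowest at 37.6 and 33.7 TPM. All 12 formin and Ena/VASP genes, which extend straight filaments, were too, led by Vasp at 195 and 201 TPM, Evl at 165 and 162 TPM and Enah at 133 and 149 TPM, with Diap2 lowest at 3.65 and 5.49 TPM.

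Of 16 further adhesion genes 15 were above 1 TPM in both libraries, led by the integrin gene Itgb1 at 520.5 and 548 TPM, Ilk at 198 and 189 TPM and Fermt2 at 184 and 197 TPM. All 20 capping, severing and bundling genes were, led by Marcksl1 at 871 and 853 TPM, Marcks at 729.6 and 681 TPM and Fscn1 at 459 and 453 TPM, with Capza1 lowest at 21.7 and 24.5 TPM. Of the other tropomyosin genes Tpm1 had 543 and 513 TPM, Tpm2 464 and 460.4 TPM and Tpm3 46.0 and 54.8 TPM, and Tpm4 held 34.5 ± 2.07% of the tropomyosin total (SD, n = 2).

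Between the libraries the members differed little, as did most genes with at least 1000 counts. Each log2 ratio, replicate 1 over replicate 2, came from counts plus 0.5 after scaling by library size and trimmed-mean factors, with an exact 95% interval for counting error. No p-value was computed, because 2 libraries of a single group give no measure of spread apart from the difference itself. None of the 39 members, all with at least 10 counts over both libraries, differed by 1.5-fold or more, against 11.2% of the 19433 genes with that many counts (5.16% higher and 6.04% lower in replicate 1). Among the 8685 genes with at least 1000 counts, a depth that 34 members reached, the share was 0.438% (0.242% higher and 0.196% lower in replicate 1). The median size of the log2 ratio was 0.078 for the members. It was 0.141 for genes with at least 10 counts and 0.085 for those with at least 1000. The median ratio of the members was 0.041, beside 0.014 for all genes with at least 10 counts and 0.017 for those with at least 1000. Corrected for gene length and GC content, it was 0.076, beside 0.027 and 0.039.

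The 5 ratios largest in size were all above 0, that is, higher in replicate 1. Tmsb10 had 2192 reads in replicate 1 and 1437 in replicate 2, a log2 ratio of 0.42 (interval 0.33 to 0.52). Of its stretches of 50 bases 27.0% also occurred in other genes, and the part of this in the ratio was not tested. Myh14, with 23 and 16 reads, had a ratio of 0.33 (-0.64 to 1.36), an interval that holds 0. Myl9, with 3745 and 2641 reads, had 0.32 (0.25 to 0.39), Cnn2 0.25 (0.21 to 0.30) and Myl6 0.23 (0.12 to 0.33). Tmsb10 and Myh14 were at least 25% higher in replicate 1, against 11.1% of genes with at least 10 counts and 1.19% of those with at least 1000. No member was lower in replicate 1 by the same factor, against 12.5% and 1.87%, and the shares in either direction were 23.6% and 3.05%. The interval lay above 0 for 16 members (41.0%), against 14.3% of genes with at least 10 counts and 23.3% of those with at least 1000. It lay below 0 for 5 members (Msn, Tpm4, Vcl, Cald1 and Flnc), or 12.8%, against 12.8% and 19.7%. It held 0 for the other 18 (46.2%), among them Acta2, Myh10, Myh9 and Flna. Such an interval narrows with depth. The nonmuscle median of 7414 reads in replicate 1 and 6595 in replicate 2 is far above 1000, so neither background is matched for depth.

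The ratio was lowest in the longest genes. The Spearman correlation between length and ratio was -0.45 across the 39 members and -0.50 across the 8685 genes with at least 1000 counts, a description of these libraries in which all points share the same 2 samples. In the shortest 13 members (665 to 2335 bases) the median ratio was 0.08, and the interval lay above 0 for 8 and below 0 for 1. In the middle 13 (2368 to 4841 bases) the median was 0.10, with 7 above 0 and none below, so the ratio did not fall steadily with length. In the longest 13 (5026 to 12928 bases) the median was -0.007, with 1 above 0 and 4 below. With the ratio corrected for gene length and GC content, Tmsb10 stood at 0.36 and Myl9 at 0.26, and the part of length in these differences was not otherwise tested. The hepatoblast markers, which differed most in the marker lists, summed to 110.5 TPM in replicate 1 and 289 TPM in replicate 2, with Afp highest and Apob lowest, and all 6 were lower in replicate 1 by more than 1.5-fold.

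**Figure D5:**
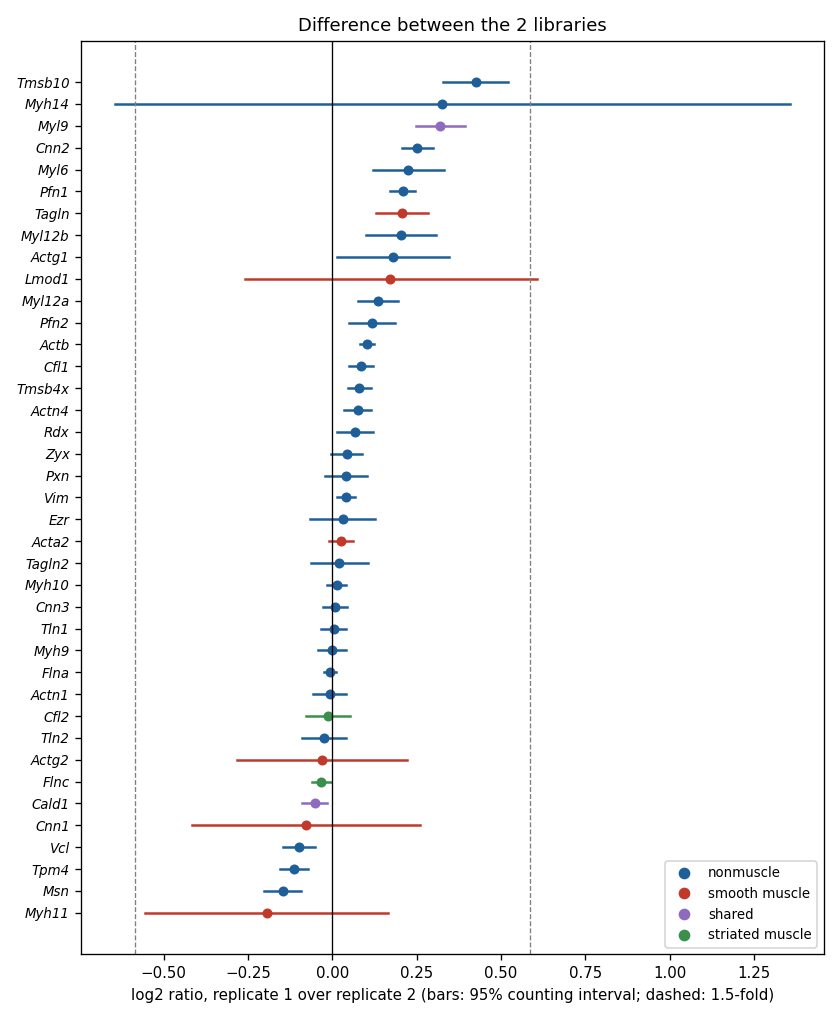
log2 ratio of replicate 1 to replicate 2 for each member, with its 95% counting interval as a bar and dashed lines at 1.5-fold. All 39 points lie between -0.20 (Myh11) and 0.42 (Tmsb10), inside the dashed lines.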

How the data were processed

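The deposited files hold, per gene, a raw read count and a TPM value made by the authors. Per the submitters' processing notes, STAR 2.4.0a, SAMtools 1.3 and featureCounts were used and the build was named mm9. Deposited coordinates were those of GRCm38: 56.3% of the 35656 symbols found in GENCODE M21 had identical ones, among them 14 of the 39 members, and positions are given here from M21. The strand setting and the treatment of reads with several matches are not given in the sources used here. The deposited TPM equalled count over the deposited length, scaled (largest difference 4.7e-11). That length equalled the M21 exon bases for 18 of 39 members and was under 50% of them for Myl6, Cfl1 and Vim, so levels of such genes depend on the annotation.

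Members and lists were chosen with earlier results of these data known, and no list is independent support. Every member is named. Of each pathway list the 3 highest genes, the lowest and those under 1 TPM are named, and of marker lists the highest and lowest. Results of 1 pathway list and 1 marker list are not reported here. Mrtfa, Mrtfb and Diaph1 to Diaph3 were found under older symbols. Ratios used edgeR 4.0.16 factors (1.0011 and 0.9989), and the alternative DESeq2 1.42.0 size factors (1.0677 and 0.9366). The ratio step was tested on simulated counts that carried counting error only, so this test does not cover other spread between libraries. Shared sequence was measured as distinct stretches of 50 bases in M21 transcripts, on either strand.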

Additional observations from a re-analysis of the deposited data

How the results depend on the processing

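No paired analysis was possible because the series holds a single group. Against 13.1 for the ratio of the nonmuscle to the smooth muscle median, the value was 33.9 in CPM, 1.76 with Myl9 and Cald1 in the smooth muscle class and 2.17 with class means; it was 19.3 with members sharing under 5% of their 50-base stretches and 24.3 without Acta2, both chosen after seeing the data. Single libraries gave 12.1 to 14.1. Nonmuscle genes were higher under each of these. At a threshold of 25% in place of 1.5-fold, 2 members differed between the libraries, against 0, and the count was 0 under the other scalings, filters and pseudocount. The members held 1.48% of protein-coding counts, against 1.43% of all counts. By counts Actb held 75.8% of the 4 member actins, against 67.8% by TPM, and Myh10 68.5% of the 4 member myosin heavy chains, against 72.6%. The actin sums hold the uncertain Actg1 count. With only 2 libraries of 1 condition, an SD rests on a single difference.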
